A study of Mus musculus with 7 samples.

Results

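The haematopoietic stem and progenitor genes Kit, Flt3, Cd34, Procr, Lyl1, Hhex, Runx1, Meis1, Mecom and Ikzf1 were followed across 7 arrays of mouse liver cells. They were chosen by symbol, and a probe set counted for a gene only where the annotation pairs it with that gene alone. All 10 were found among the 12393 genes so paired, with 16 of the 22690 probe sets. Total RNA had been measured from feeder cells derived from the fetal liver (1 array), from unsorted liver endothelial progenitors (1 array), and from such progenitors sorted as Sca1+ (2 arrays) or Sca1- (3 arrays). Sca1 is a surface antigen widely used to enrich mouse stem and progenitor cells. Strain, gestational age and other sorting antigens are not given in the sources used here. Replicate numbers come from the sample titles, and unnumbered titles count as replicate 1. This gives 2 pairings, Sca1+ replicate 1 with Sca1- replicate 1 (pair 1) and Sca1+ replicate 2 with Sca1- replicate 2 (pair 2), while Sca1- replicate 3 has no partner. Nothing in the labels says that arrays came from separate animals or cultures, so p-values reflect only how far these samples spread, possibly for technical reasons.

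Blood stem cells of the mouse fetal liver depend on a small set of receptors and transcription factors. Kit and Flt3 are receptor tyrosine kinases through which stem cell factor and Flt3 ligand support survival and division, Kit in stem cells and mast cells and Flt3 in early lymphoid and dendritic progenitors. Runx1, Lyl1, Meis1, Mecom, Hhex and Ikzf1 encode nuclear regulators that establish or maintain this state, and several of them, like the surface genes Cd34 and Procr, are also used by endothelial cells.

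Each array was scaled so that its trimmed mean was 500, and differences were taken on log2 signals, with values under 64 raised to that floor. Every difference below is on this log2 scale. As a measure of background, the highest of 27 probe sets for bacterial control transcripts ranged between 50.8 and 170 over the 7 arrays. They read background only if no such transcripts had been added. The 3' to 5' ratio of Actb, which rises with truncated RNA or an extra round of amplification, was 1.03 on the feeder array, 1.01 on the unsorted array, 6.83 and 2.37 in Sca1+ cells and 13.5, 1.87 and 1.91 in Sca1- cells. Of 17 endothelial marker genes on the arrays, 10 lay above the highest background control on the feeder array and 9 on the unsorted array. The number was 6 and 11 in Sca1+ cells and 2, 7 and 9 in Sca1- cells. These counts depend on the control, which was 170 on Sca1- replicate 1 but 55.2 on Sca1+ replicate 1. Summed signal of the 17 genes was 2014 on the feeder array and 2938 on the unsorted array. It was 994 and 3102 in Sca1+ cells and 1679, 1594 and 1542 in Sca1- cells. Among probe sets annotated to 1 gene alone, none was paired with Ly6a, which encodes Sca1. Those annotated to several genes were not read. In these bulk samples a smaller share of cells that carry a transcript and less of it per cell cannot be told apart.

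Only 3 of the 10 genes, Lyl1, Hhex and Runx1 as read by the probe set used for it, lay above the highest background control on every one of the 7 arrays. Lyl1 was the member with the smallest p between the fractions and was lower in Sca1+ cells in both pairings, but the difference did not pass the test across all genes. Hhex was close to equal in pair 1. Flt3 and Mecom were at or near background on most arrays, and Kit reached at most 221. Cd34, Procr and Meis1 stood higher in Sca1+ than in Sca1- in both pairings, at low signals. None of the 9 genes that could be tested passed.

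**Figure D1:**
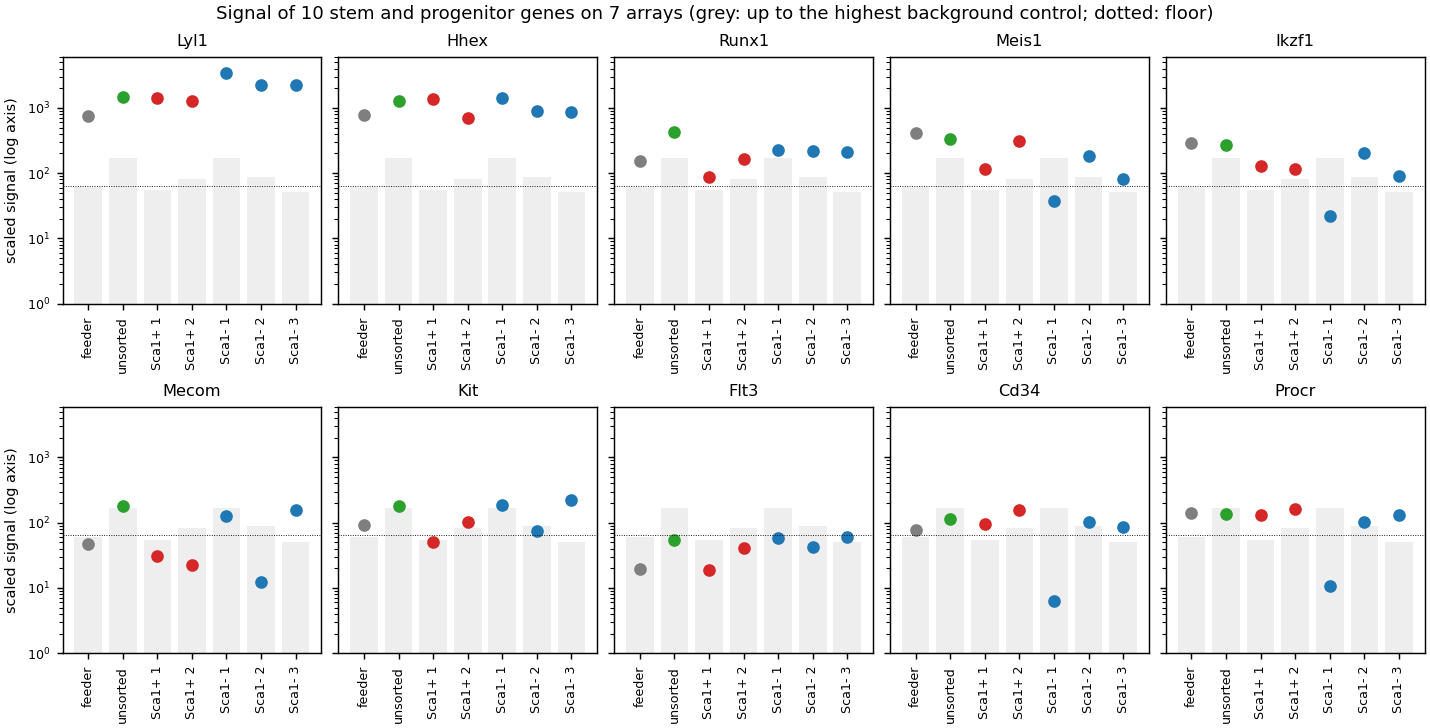
Scaled signal (log axis) of the 10 genes on each of the 7 arrays, 1 point per array, with feeder, unsorted, Sca1+ and Sca1- arrays running left to right. Grey bars reach the highest background control of the array and the dotted line is the floor of 64. Lyl1, with 1418 and 1290 in Sca1+ cells and 3383, 2278 and 2223 in Sca1- cells, and Hhex stay far above the bars, whereas Flt3 clears its bar on 1 array.

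Lyl1 encodes a basic helix-loop-helix factor, a close relative of Tal1, that works in complexes with Lmo2 and GATA factors in blood progenitors. The gene lies on chromosome 8 (GRCm38.p6, 84701423 to 84704716), and Hhex, which encodes a homeodomain repressor needed for blood and endothelial precursors and for liver budding, lies on chromosome 19 (37434841 to 37440731). The RefSeq sequence in front of each gene is shown because, apart from Runx1, these were the members read above background on every array. Both are given on the plus strand up to the base before the annotated gene start, at chr8:84701207-84701422 and chr19:37434591-37434840, and capitals mark matches to CCGGAA or its reverse TTCCGG, a core bound by ETS factors.
Lyl1: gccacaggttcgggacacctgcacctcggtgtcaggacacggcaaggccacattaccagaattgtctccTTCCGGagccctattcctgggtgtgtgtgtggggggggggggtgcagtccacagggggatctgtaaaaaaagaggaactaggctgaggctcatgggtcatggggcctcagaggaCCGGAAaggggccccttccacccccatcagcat
Hhex: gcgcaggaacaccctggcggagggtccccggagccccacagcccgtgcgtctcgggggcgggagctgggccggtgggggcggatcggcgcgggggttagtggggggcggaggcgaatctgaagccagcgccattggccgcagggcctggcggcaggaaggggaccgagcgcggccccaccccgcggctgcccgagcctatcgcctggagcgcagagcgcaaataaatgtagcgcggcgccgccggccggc
The Lyl1 window of 216 bases holds this core in 2 places and the Hhex window of 250 bases in 0. Of 27025 genes in the RefSeq table, 9.23% hold it in a window of the first length and 12.2% in one of the second. The E-box CANNTG occurs 1 time for Lyl1 and 0 times for Hhex, and 61.4% and 66.0% of genes hold it in windows of those lengths. Neither window holds the GATA core AGATAA or the RUNX core TGTGGT on either strand, which 9.21% and 12.6% of windows of the Lyl1 length hold. Letters absent from these windows say nothing about binding elsewhere.

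Lyl1 had signals of 1418 and 1290 in Sca1+ cells, against 3383, 2278 and 2223 in Sca1- cells. Both Sca1+ arrays lay below all 3 Sca1- arrays, which held for 8.45% of the 8591 genes tested. The difference was -0.93 ± 0.39 on the log2 scale (SE, n = 2 and 3), with means of 10.40 in Sca1+ and 11.33 in Sca1-, a ratio of 0.525. With limma and group as the only term, its unadjusted p was 0.0465, a level that 2.29% of genes reached in the lower direction, and its adjusted p was 0.9995. The sample records fall into a first deposit set and a second (Sca1+ replicate 2, Sca1- replicates 2 and 3), inferred from which records name a dye and software. With this set as a block the difference of Lyl1 was -0.997 ± 0.227 and limma's adjusted p was 0.162. Within pair 1 it was -1.25, within pair 2 -0.82, and against Sca1- replicate 3 Sca1+ replicate 2 differed by -0.79.

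Granulocyte markers stood in the same order between the fractions. The summed signal of 12 granulocyte markers was 137387 and 9865 in Sca1+ cells, against 575058, 228335 and 202586 in Sca1- cells. Of the 12 markers, 10 were lower on both Sca1+ arrays than on any Sca1- array, as were 8.45% of tested genes. All 12 had a difference below 0, with a median of -3.34. In limma 0 passed with group alone, beside 0% of tested genes, and 5 passed lower with the block, beside 0.989%. The 5 sorted arrays stood in the same order by Lyl1 signal as by granulocyte sum. The part of granulocytes in the Lyl1 difference was not tested. On the feeder array Lyl1 read 747, the lowest of the 7 arrays, and on the unsorted array it read 1443. By the rule for genes with the most similar pattern, its log2 signal ran closest to Rogdi (r = 0.996) and Pmf1 (r = 0.994) over the 6 arrays of the larger table. Such values, the highest among 8591 genes over few arrays, describe these arrays alone.

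Hhex had signals of 1370 and 702 in Sca1+ cells and 1400, 885 and 864 in Sca1- cells. Its groups overlapped, and the replicate 1 array was the highest in each fraction. The difference was -0.061 ± 0.465 (SE, adjusted p = 0.9995 with limma), -0.19 ± 0.23 with the deposit set as a block (adjusted p = 0.693), -0.031 in pair 1 and -0.33 in pair 2. It was positive, at 0.42, without Sca1+ replicate 2 and at 0.17 without Sca1- replicate 1, so no direction can be given. The feeder array read 766 and the unsorted array 1272. The genes of most similar pattern were Car2 (r = 0.992), a carbonic anhydrase gene, and Cxcr6 (r = 0.984), a chemokine receptor gene.

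Runx1 encodes the DNA-binding partner of Cbfb and is required for the emergence of blood stem cells from endothelium. Its 5 probe sets disagreed. The one used for the gene, 1452531_at, whose log2 signals averaged highest without the feeder array, read 88.2 and 163 in Sca1+ cells against 225, 222 and 210 in Sca1- cells. The groups did not overlap, with Sca1+ lower, as for 8.45% of genes tested. The difference was -0.87 ± 0.45 (SE, unadjusted p = 0.0947, adjusted p = 0.9995 with limma), or -0.81 ± 0.36 with the block (adjusted p = 0.350). It was -1.35 in pair 1 and -0.44 in pair 2, -0.42 without Sca1+ replicate 1, -1.31 without Sca1+ replicate 2 and -0.30 as the mean of all Runx1 probe sets.

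Of the other probe sets, 1427650_a_at read 118 and 167 in Sca1+ cells against 269, 267 and 312 in Sca1- cells. Probe set 1422864_at read 108 and 70.6 in Sca1+ cells against 160, 166 and 118 in Sca1- cells. In these 2 the fractions also did not overlap, so 3 of 5 probe sets were lower on both Sca1+ arrays. Probe set 1422865_at, with 109 and 175 in Sca1+ cells against 76.95, 190 and 124 in Sca1- cells, overlapped. Probe set 1452530_a_at read 263 on Sca1+ replicate 2 and 42.8 on Sca1+ replicate 1, against 79.6, 42.2 and 52.6 in Sca1- cells. The sources used here do not say which Runx1 transcripts each probe set reads.

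**Figure D2:**
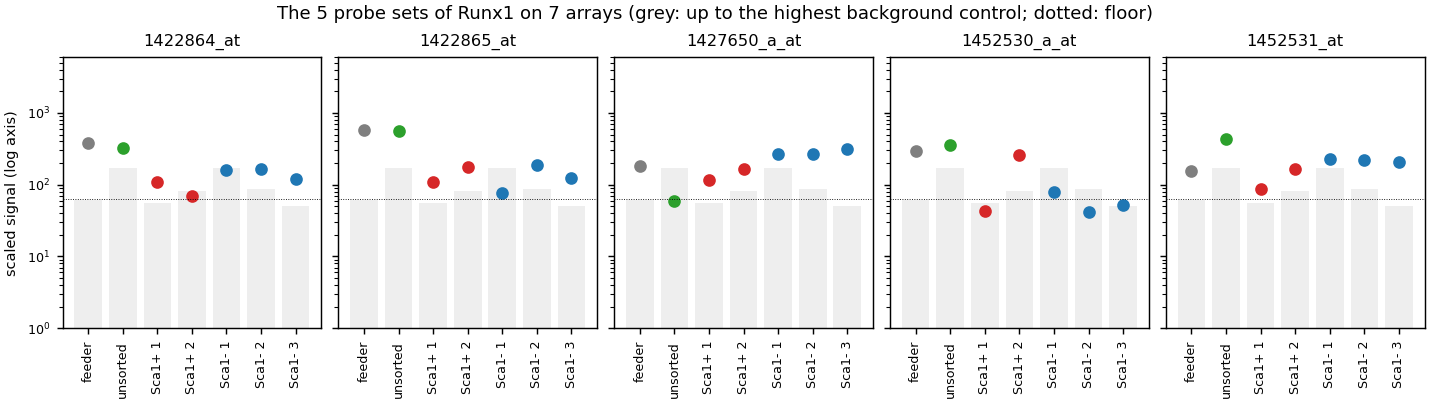
Scaled signal (log axis) of the 5 Runx1 probe sets on the 7 arrays, in the order feeder, unsorted, Sca1+ and Sca1-, with grey bars up to each array's highest background control and a dotted line at the floor of 64. Of the 5, 4 read higher on the unsorted array than on any sorted array, and 1427650_a_at, at 60.2, read lower there.

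Meis1 encodes a homeodomain cofactor of HOX and PBX proteins. It had signals of 116 and 312 in Sca1+ cells and 37.4, 182 and 81.0 in Sca1- cells. The groups overlapped, although within each pairing the Sca1+ array was higher, by 0.85 in pair 1 and 0.78 in pair 2. The difference was 0.95 ± 0.66 (SE, adjusted p = 0.9995 with limma) and 1.14 ± 0.47 with the block (adjusted p = 0.321). The feeder array read 414 and the unsorted array 337.

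The 4 arrays with the highest Meis1 signals were also the 4 with the highest sums of mesenchymal markers. The summed signal of 12 fibroblast and mesenchymal markers was 71724 on the feeder array, 60581 on the unsorted array, 4220 and 89509 in Sca1+ cells and 13287, 38172 and 34279 in Sca1- cells. The number of these markers above the highest background control was 12 on the feeder array, 10 on the unsorted array, 7 and 11 in Sca1+ cells and 4, 11 and 11 in Sca1- cells. Their part in the Meis1 values was not tested.

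Ikzf1 encodes Ikaros, a zinc finger factor of lymphoid and multipotent progenitors. Its signals were 129 and 115 in Sca1+ cells and 22.4, 201 and 91.4 in Sca1- cells. The 2 pairings went opposite ways, with 1.01 in pair 1 and -0.80 in pair 2, and the difference was 0.21 ± 0.58 (SE, adjusted p = 0.9995 with limma). The feeder array read 291 and the unsorted array 265. Its difference was -0.15 without Sca1- replicate 1, so its sign rested on that array.

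Mecom encodes the zinc finger regulator Evi1 that sustains long-term stem cells. Its brighter probe set read 31.0 and 22.6 in Sca1+ cells and 125, 12.4 and 156 in Sca1- cells. Both Sca1+ arrays and Sca1- replicate 2 were at the floor, and of the sorted arrays only Sca1- replicate 3 exceeded its highest background control. Mecom entered the test only through 2 Sca1- arrays, which fixed the direction of its difference of -0.75 ± 0.52. The feeder array read 46.8, below its highest background control of 60.8, and the unsorted array 181, beside a control of 170. The other Mecom probe set was at the floor on all 7 arrays.

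The receptor genes gave low signals, with Kit above the highest background control on 5 of 7 arrays and Flt3 on 1. Kit, on its brighter probe set, read 50.6 and 103 in Sca1+ cells and 188, 75.6 and 221 in Sca1- cells. The pairings went opposite ways, with -1.56 in pair 1 and 0.45 in pair 2, and the difference was -0.85 ± 0.60 (SE, adjusted p = 0.9995 with limma). The difference was -0.51 without Sca1+ replicate 1, -1.33 without Sca1- replicate 2, -0.55 without Sca1- replicate 3 and -0.45 as the mean of both probe sets. Kit read 92.2 on the feeder array and 178 on the unsorted array. Its smallest signal, that of Sca1+ replicate 1, was below the floor and below the highest background control of 55.2 there. The pair 1 difference of Kit therefore rests on the floor on its Sca1+ side. The other Kit probe set exceeded the floor on 1 array alone, Sca1- replicate 3, at 70.6. Flt3 read 19.6 on the feeder array, 54.6 on the unsorted array, 18.6 and 41.4 in Sca1+ cells and 57.4, 43.0 and 60.4 in Sca1- cells. All 7 arrays were at the floor for Flt3, which was the 1 member left out of the test, and these values have no order.

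Mast cells carry Kit, and their markers were low as well. Of 8 mast cell markers on the arrays, 4 and 1 lay above the highest background control in Sca1+ cells and 2, 1 and 2 in Sca1- cells. Their summed signal was 908 and 357 in Sca1+ cells and 5232, 626 and 799 in Sca1- cells. Most of the sum on Sca1- replicate 1 was Hdc, the histidine decarboxylase gene that granulocytes also express, at 4495, while the receptor subunit genes Fcer1a and Ms4a2 read 61.8 and 14.4 there. Their part in the Kit values was not tested.

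Cd34, a sialomucin of progenitor and endothelial surfaces, had signals of 96.6 and 159 in Sca1+ cells and 6.40, 104 and 85.6 in Sca1- cells. Sca1+ was higher by 0.59 in pair 1 and 0.61 in pair 2, but the groups overlapped. The difference was 0.58 ± 0.48 (SE, adjusted p = 0.9995 with limma), or 0.68 ± 0.38 with the block (adjusted p = 0.417). The feeder array read 78.2 and the unsorted array 115. Procr, the endothelial protein C receptor that also marks mouse stem cells, read 130 and 162 in Sca1+ cells and 10.8, 104 and 133 in Sca1- cells. It was higher in Sca1+ by 1.02 in pair 1 and 0.64 in pair 2, and the difference was 0.59 ± 0.49 (SE, adjusted p = 0.9995 with limma). The feeder array read 142 and the unsorted array 134. Sca1- replicate 3 lay above Sca1+ replicate 1, so these groups overlapped too.

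Cd34, Procr, Meis1 and Ikzf1 had their lowest signal of all 7 arrays on Sca1- replicate 1. On that array each was below the floor and below its highest background control of 170. The pair 1 differences of these 4 genes therefore rest on the floor on their Sca1- side. It was also the array with the highest Actb 3' to 5' ratio, 13.5, and the part of RNA quality in these values was not tested. Without Sca1- replicate 1 the differences were 0.39 for Cd34, 0.30 for Procr and 0.65 for Meis1. Without Sca1+ replicate 2 they were 0.22 for Cd34, 0.43 for Procr and 0.24 for Meis1, and without Sca1+ replicate 1 they were 0.94, 0.76 and 1.67.

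**Figure D3:**
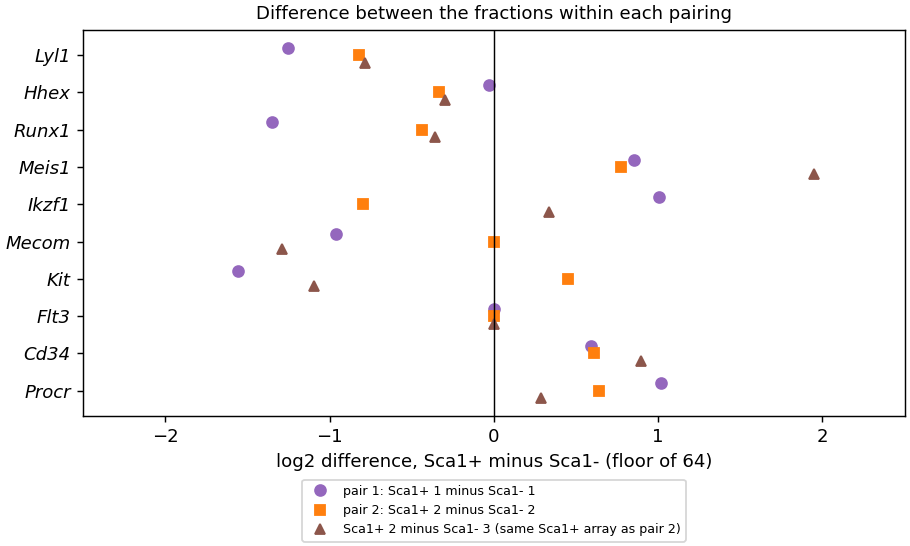
Log2 difference, Sca1+ minus Sca1-, of each of the 10 genes in pair 1 (circles), pair 2 (squares) and between Sca1+ replicate 2 and Sca1- replicate 3 (triangles). Lyl1, Runx1 and Hhex lie left of 0 and Meis1, Cd34 and Procr right of it in all 3, while Kit and Ikzf1 change side and Flt3 sits at 0 because all its values were at the floor.

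Across the 10 genes the median difference was -0.016 in pair 1 and 0 in pair 2, beside 0.020 and 0.056 over all 8591 genes tested. In pair 1, where 14.7% of genes were at least 2-fold lower and 17.1% at least 2-fold higher, Kit, Runx1 and Lyl1 were at least 2-fold lower and Procr and Ikzf1 at least 2-fold higher. The pair 1 values of Kit, Procr and Ikzf1 each rest on the floor on 1 side. In pair 2, with 5.14% and 6.68%, none of the 10 reached 2-fold either way. A difference of at least 0.5 in the same direction in both pairings was seen for Lyl1, lower, where 8% of genes tested had it, and for Cd34, Procr and Meis1, higher, where 7.32% did. With limma and group as the only term 0 of the 9 tested members passed, beside 0% of all genes in either direction, and 1 member, Lyl1, had an unadjusted p under 0.05, lower, while 0 did in the higher direction, beside 1.11% of genes. Both Sca1+ arrays lay below all 3 Sca1- arrays for 2 members, Lyl1 and Runx1, beside 8.45% of genes, and above them for 0 members, beside 12.1%. Once the deposit set was a block, 0 of 9 passed, beside 0.989% of genes lower and 0% higher, and the adjusted p of the members ranged between 0.162 and 0.797.

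The unsorted progenitors gave higher readings of several members than the sorted fractions. Runx1 at 428, Meis1 at 337, Ikzf1 at 265 and Mecom at 181 were above every sorted array, which 29.2% of tested genes were. These same 4 were at least 2-fold above the mean of the 2 fractions (1.402, 1.30, 1.23 and 1.12 on the log2 scale), which 16.4% of tested genes were. The 1.12 of Mecom rests in part on the floor, where both Sca1+ arrays and Sca1- replicate 2 stood. Its unsorted signal of 181 stood beside a highest background control of 170. Against the mean of the fractions 0 members were 2-fold lower on the unsorted array, beside 8.36%. With 1 unsorted array there was no test. Over all tested genes the median of this difference was 0.17. It moved to -0.10 with quantile normalization and to -0.54 with median scaling, and under each of these 0 of the 10 members were 2-fold higher. Runx1 was then at 0.90 and 0.68, Meis1 at 0.75 and 0.61, Ikzf1 at 0.56 and 0.53 and Mecom at 0.45 and 0.51, each still above the median of all genes. For Runx1 the reading depended on the probe set, since 4 of 5 were above every sorted array and 1427650_a_at was below them all. The unsorted array had an Actb 3' to 5' ratio of 1.01, against 1.87 to 13.5 on the sorted arrays. Its probe set for the added control transcript Cre read 7704, against 30358 to 78152.5 on the sorted arrays. These differences run together with sorting, and their part in the readings was not tested.

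The feeder layer was deposited in a separate table, under a different array platform, and was set beside the unsorted array without a test. Array platform and cell source therefore cannot be told apart in any comparison with the feeder array. Mecom read 46.8 on the feeder array and 181 on the unsorted array, and the feeder signal was under the floor, so that the difference of -1.50 is set by the floor. Runx1 read 155 on the feeder array and 428 on the unsorted array, a difference of -1.47. Not all its probe sets shared this, and they ranged between -1.47 and 1.51. The 1.51 was that of 1427650_a_at, whose unsorted signal of 60.2 was under the floor and under that array's highest background control of 170. Lyl1 differed by -0.95, Kit by -0.95 and Hhex by -0.73. Meis1 (0.30), Ikzf1 (0.13) and Procr (0.08) lay slightly above 0. Runx1 and, with its feeder signal at the floor, Mecom were the 2 members lower by 2-fold or more in feeder cells, beside 9.6% of tested genes, and 0 reached 2-fold the other way, beside 4.04%. Meis1 and Ikzf1 were above every sorted array on the feeder array, as were 23.6% of tested genes. Kitl, which encodes the ligand of the Kit receptor, read 497 on the feeder array, 590 on the unsorted array, 88.2 and 279 in Sca1+ cells and 17.8, 121 and 140 in Sca1- cells.

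Of 33 partner and fellow transcription factors listed, 29 were on the arrays and 22 were tested, with 7 differences above 0 and 15 below. Their median was -0.39, beside 0.07 for all tested genes. With limma 0 of them passed. When the deposit set was a block, 0.989% of tested genes passed lower, and 1 of these 22 did. It was Nfe2, a megakaryocyte and erythroid factor gene, with 778 and 76.6 in Sca1+ cells against 8992, 1955 and 1859 in Sca1- cells. Its difference was -3.71 ± 1.09 (SE, adjusted p = 0.9995 with limma) and -4.16 ± 0.31 with the block (adjusted p = 0.00545). On Sca1+ replicate 2 its signal was below the highest background control of 82.0. Nfe2 had the same order between the fractions as the granulocyte sums, and their part in it was not tested.

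Myb (-1.87 ± 0.68), a regulator of definitive blood progenitors, and Gfi1 (-1.38 ± 0.54), a repressor of stem cells and granulocyte precursors, followed by p and did not pass. Tcf12 (0.97 ± 0.48), an E-protein gene, lay on the other side. Tal1, Lmo2, Tcf3 and Tcf12, which encode the usual partners of the Lyl1 protein or its relative, had differences of 0.42, 0.18, 0.54 and 0.97. Ldb1, Gata1 and Gata2, which encode other members of these complexes, had differences of -0.50, -0.47 and -0.0048. None of these 7 passed. Erg, Hoxa7, Hoxa10, Meis2, Gfi1b, Runx3 and Ikzf2 did not reach the signal minimum for the test.

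Of 18 other surface genes listed, 17 were on the arrays and 15 were tested, with 9 differences above 0, 6 below and a median of 0.09. With limma 0 of these passed. In the blocked fit, where 0.989% of tested genes passed lower, 1 of the 15 did. It was Prom1, which encodes the progenitor antigen prominin, at 313 and 69.2 in Sca1+ cells against 3103, 441 and 472 in Sca1- cells. Its difference was -2.55 ± 1.02 (SE, adjusted p = 0.9995 with limma) and -2.97 ± 0.30 with the block (adjusted p = 0.0114). It too was below the control on Sca1+ replicate 2 and had the same order between the fractions as the granulocyte sums, whose part was not tested. Itga2b, which encodes the platelet and early progenitor integrin CD41, differed by -1.11 ± 0.39, with 247 and 327 in Sca1+ cells against 606, 670 and 570 in Sca1- cells. Cd93 (1.29 ± 0.68) and Csf3r (-1.32 ± 0.77), which encodes the receptor for granulocyte colony-stimulating factor, did not pass, and Csf3r is also one of the granulocyte markers. Of 8 ligands and niche factors listed, 6 were on the arrays and 3 were tested, and Kitl (0.61 ± 0.64), Cxcl12 (0.75 ± 1.49) and Selp (-0.16 ± 0.61) did not pass.

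**Figure D4:**
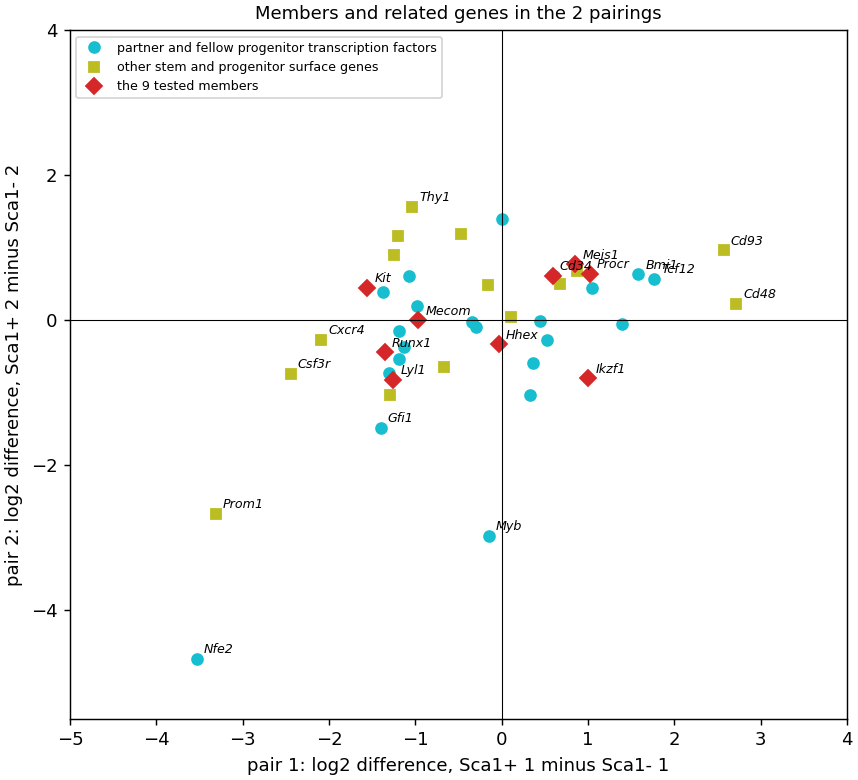
Log2 difference, Sca1+ minus Sca1-, in pair 1 (horizontal axis) against pair 2 (vertical axis) for the 9 tested members (diamonds), 22 other progenitor transcription factors (circles) and 15 other surface genes (squares). Nfe2 and Prom1 lie farthest to the lower left, Lyl1 and Runx1 lie in the same quadrant, and Meis1, Procr and Cd34 lie with Bmi1, Tcf12 and Cd93 in the upper right.

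The remaining patterns across the 6 arrays were as follows. Kit ran closest to Atp5mpl (r = 0.946) and Itpk1 (r = 0.944), Cd34 to Luzp1 (r = 0.995) and Ift172 (r = 0.992), and Procr to Usp9x (r = 0.995) and Pop4 (r = 0.993). Runx1 ran closest to Narf (r = 0.985) and Septin1 (r = 0.985), Mecom to Kansl1l (r = 0.982) and Ankrd24 (r = 0.977), Meis1 to Rnft1 (r = 0.990) and Lmbr1 (r = 0.987), and Ikzf1 to Als2cl (r = 0.986) and Taf1b (r = 0.982). None of the 10 members was among the closest genes of another.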

How the data were processed

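Single-colour signals of 7 arrays were deposited as intensity values on a linear scale, 1 per probe set, in 2 tables of 22690 probe sets, each array with a 2% trimmed mean near 250. The software GCOS is named for 3 arrays, per the submitters' processing notes, and for the others the software was not given in the sources used here. Each array was multiplied so that its trimmed mean became 500, and signals were floored at 64 before the log2 transform. Of the probe sets 64 were controls, 20380 had 1 gene, 691 several and 1555 none, and each gene was read from its probe set of highest mean log2 signal over the larger table. Genes whose signal exceeded 100 on 2 or more sorted arrays entered the test with limma 3.58.1 in R 4.3.3 (eBayes with an intensity trend, Benjamini-Hochberg adjustment over 8591 genes, threshold 0.05) on the 6 arrays of the larger table, and the fit was checked on simulated data. Residual degrees of freedom were 3, or 2 with the deposit set as a block. The number of arrays limits the precision. No arrays held identical values. Symbols are those of the platform annotation. Genes named outside the 10 members were up to 4 per list by smallest p and, for each tested member, the 2 genes of highest Pearson r; others were named after their values were seen. The members and lists were chosen with earlier results of these data known. Alternatives covered scaling, floor, filter, probe set choice, trend, blocks and single arrays left out. Promoter sequences are RefSeq's, and all 10 members were in that table. Figures were drawn with matplotlib 3.10.9.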

Additional observations from a re-analysis of the deposited data

How the results depend on the processing

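No member passed under any alternative tried. Genes were read by the probe set used for each or by the mean of its probe sets. Cd34, Meis1 and Procr lay above 0 and Lyl1, Runx1 and Kit below under each alternative that tested them. Mecom lay below 0 as well, but the 2 Sca1- arrays through which it entered the test fixed that direction. Runx1 probe set 1422865_at, fitted on its own, lay at 0.18, or 0.33 with the deposit set as a block. Runx1 probe set 1452530_a_at was not fitted, since of the sorted arrays only Sca1+ replicate 2 exceeded the signal minimum. It differed by -0.31 in pair 1 and 2.04 in pair 2, each with 1 side at the floor. When single arrays were left out, Runx1 ranged between -1.31 and -0.42, Kit between -1.33 and -0.51, Mecom between -1.13 and -0.48, Meis1 between 0.24 and 1.67, Cd34 between 0.22 and 0.94 and Procr between 0.30 and 0.83. Ikzf1 was at -0.21 with the highest floor and at -0.23 with only the second deposit set, a setting chosen after seeing the data, and between -0.15 and 0.67 when single arrays were left out. Hhex ranged between -0.54 and 0.42 in the same way, and Lyl1 between -1.04 and -0.73. Over all genes tested the count past the threshold was 0, but 1 without a signal filter, 85 with the deposit set as a block, 80 with the replicate number as a block (replicate block) and 4 with only the second deposit set; it was 0 whichever single array was left out. In the replicate block Lyl1 was at -1.04. Same-numbered arrays deviated together from their group means (r = 0.57 in pair 1 and 0.48 in pair 2, across genes). The deviations of the 2 Sca1+ arrays mirror each other, so these values are not separate observations. Each pair also lies within 1 deposit set, so number and set cannot be told apart. With 2 pairs and no label that joins them, the numbers are not taken to pair the samples. The median difference of the 10 members in pair 1 moved to -0.64 with a floor of 16 and to -0.43 with a pseudocount of 32. The unsorted median moved to 0.031 with median scaling, against 0.53. The feeder median of -0.65 moved to -0.18 with quantile normalization and to -0.24 with the highest floor or the mean of all probe sets. The cause was not tested. A signal minimum of 300 left only Lyl1 and Hhex of the members in the test, and signal close to background limits the other 8.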
